A study of Mus musculus with 12 samples.

Results

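Cathepsins are the proteases of the lysosome, the acidic compartment in which cells break down what they take up and what they discard. Most are cysteine proteases, cathepsin D is an aspartic protease, and cystatin C, encoded by Cst3, is a small secreted protein that binds and blocks the cysteine cathepsins. In brain tissue these genes are best known from microglia, the resident macrophages, and cystatin C also from astrocytes. In bone marrow, cathepsins are made by myeloid cells.

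The members were chosen by their measured levels in these same libraries, as members of one protease system that stood out in an earlier look at the data. They were the 6 rows of the deposited table whose symbol was Cst3, Ctsb, Ctsd, Ctsl, Ctss or Ctsz, out of 38924 rows, of which 24388 were above 0 in at least 1 library. RNA was sequenced from mouse haematopoietic stem and progenitor cells, taken from the marrow of male C57BL/6 donors aged 4 to 5 weeks and depleted of cells carrying CD45R, CD11b, CD3e, Ly-6G or TER119. The naive group (6 libraries, replicates 1, 2, 3, 7, 8 and 9) was not injected. For the brain-recovered group (6 libraries, replicates 4, 5, 6, 10, 11 and 12), 1000000 cells were injected intravenously into animals that had undergone an experimental stroke (ischaemia with reperfusion) 24 h earlier, and cells were isolated from the brain 24 h later. How injected cells were told from brain cells is not given in the sources used here, and whether the libraries of a group came from separate animals is not stated either. The p-values below therefore speak of these libraries only, whose spread may be technical. In the main fit (limma) each SE came from the pooled spread of entries of like level, not from the gene's own spread. Unadjusted permutation p-values, which use each gene's own values, are given near the end.

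Values are called RPKM here, as the reads of a gene divided by its length and by a factor for the library. The reads behind them could be recovered, because each value is a whole number of reads times 1 constant per library divided by 1 length. They totalled 638883 to 2293751 per naive library and 1033781 to 13337918 per brain-recovered library. The constants did not fall as these totals rose, as they would in strict RPKM. Naive replicate 1 had a constant of 713 with 1259621 reads, and brain-recovered replicate 10 had 1150 with 13337918 reads. Levels compared between libraries thus rest on a factor whose origin is not given. Relative to strict RPKM, it raises the values of libraries with many reads. The largest totals were in brain-recovered libraries, so the scale favours most of that group, though not replicate 12 (1033781 reads). Naive replicates 1, 2 and 3 and brain-recovered replicate 12 had fewer than 10000 entries above 0, while the other 8 libraries had 12066 to 23184. In each library the median entry above 0 stood at 10.8 to 12.6 RPKM, a scale against which the levels below can be read. Markers of the labelled cell type were low in the naive libraries, where 10 stem and progenitor genes with a usable label summed to 20.9 to 96.6 RPKM, and the labels of Cd34 and Kit could not be used.

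Labels and values are displaced against each other in stretches of the table, so the length implied by each row was set against the annotated gene. The lengths of Cst3 (1266 bases), Ctss (1358) and Ctsz (1441) equalled the exon length of the labelled gene. Ctsl gave 1971 bases, the length of 1 of its annotated transcripts, and Ctsb gave 4739, beside a transcript of 4743. Ctsd gave 2519 bases against an exon length of 2351 and matched no transcript. It was kept because all 6 of its alphabetical neighbours had a length of their own gene, and it is the least certain of the labels. No row clearly held another gene, and all 6 were used.

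A regulatory sequence linked to lysosomal genes is the E-box CACGTG, the core of the longer CLEAR element bound by the transcription factor TFEB. The 250 bases upstream of the RefSeq start (GRCm38.p6) were available for 5 of the 6 genes and were searched for CACGTG, which reads the same on both strands. CACGTG occurred in those of Ctsd, at 245 and 98 bases before the start, and of Ctsl, at 236 bases before it. It did not occur in those of Cst3, Ctss or Ctsz. The full CLEAR element, searched as an exact sequence only, occurred in 0 of the 5 windows. Near matches to that sequence were not counted, so whether Ctsd or Ctsl holds a variant of the element was not tested. Of all 32851 such windows, 6.02% held CACGTG. The 3 matches are shown with 30 bases on the minus strand and the motif in capitals, because they are the letters that set Ctsd and Ctsl apart from the other searched members. The first Ctsd match lies upstream of the gene as GENCODE annotates it, and the other two lie within the annotated genes.
Ctsd, chr7:142388048-142388077: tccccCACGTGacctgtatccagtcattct
Ctsd, chr7:142387908-142387937: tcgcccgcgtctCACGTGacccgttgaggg
Ctsl, chr13:64370739-64370768: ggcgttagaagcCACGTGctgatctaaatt

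Cst3, the gene of the inhibitor, was higher in brain-recovered cells and was among the most abundant entries of 3 of those libraries. Cst3 (ENSMUSG00000027447, chromosome 2, 148871722 to 148875692, minus strand, GRCm38) had 0.563, 1.19, 0.779, 2.11, 1.41 and 16.2 RPKM in naive replicates 1, 2, 3, 7, 8 and 9. In brain-recovered replicates 4, 5, 6, 10, 11 and 12 it had 19089, 3429, 346, 15757, 14.7 and 1.25 RPKM. The first 4 of these exceeded every naive value and the last 2 lay within the naive range. In reads, Cst3 had 1 to 31 per naive library and 17595 in replicate 4, where it ranked 13. It stood above 99.9% of the entries above 0 in that library, above 95.4% in replicate 6 and above 26% in replicate 12. The mean log2(RPKM + 1) was 1.60 ± 1.27 (SD, n = 6) in naive and 8.92 ± 5.40 in brain-recovered cells, which differ by 7.31 ± 1.42 (limma SE, adjusted p = 0.000702).

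Ctsb encodes cathepsin B, a cysteine protease that both cuts within proteins and trims dipeptides from their ends. Ctsb (ENSMUSG00000021939, chromosome 14, 63122462 to 63145923, plus strand) had 0.151, 1.59, 0.416, 1.97, 28.3 and 16.6 RPKM in the naive libraries, in the same order as above. In the brain-recovered libraries it had 932, 1987, 11695, 6102, 32.4 and 0.167 RPKM. It exceeded every naive value in 5 of 6 brain-recovered libraries, in replicate 11 by a small margin, and was as low as the lowest naive library in replicate 12. Ctsb was highest in replicate 6, where Cst3 was much lower than in replicates 4, 5 and 10. Its mean log2(RPKM + 1) was 2.11 ± 1.94 (SD, n = 6) in naive and 8.70 ± 5.09 in brain-recovered cells, and these differ by 6.59 ± 1.42 (limma SE, adjusted p = 0.00386).

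These 2 of the 6 members were higher in brain-recovered cells and none was lower, where 0.367% of the 17689 entries tested were called higher and 0% lower (limma). At an unadjusted p below 0.05, 5 members were higher, beside 6.08% of entries, and 0 were lower, beside 0.175%. The members were proposed with these group values known, so the calls describe the fit and are not independent evidence. All 6 members had at least 1 RPKM in 6 or more libraries and were tested. Cst3 and Ctsb were above 0 in 12 libraries, Ctsl in 10, Ctsd and Ctss in 9 and Ctsz in 8. All 6 differences were above 0, as were those of 74.5% of all entries. Their median was 3.68, beside 0.64 over all entries tested. At least 4 brain-recovered libraries stood above every naive library for Cst3 and Ctsb, as for 5.79% of entries. For no member did every brain-recovered library exceed every naive one, as it did for 0.147% of entries.

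**Figure D1:**
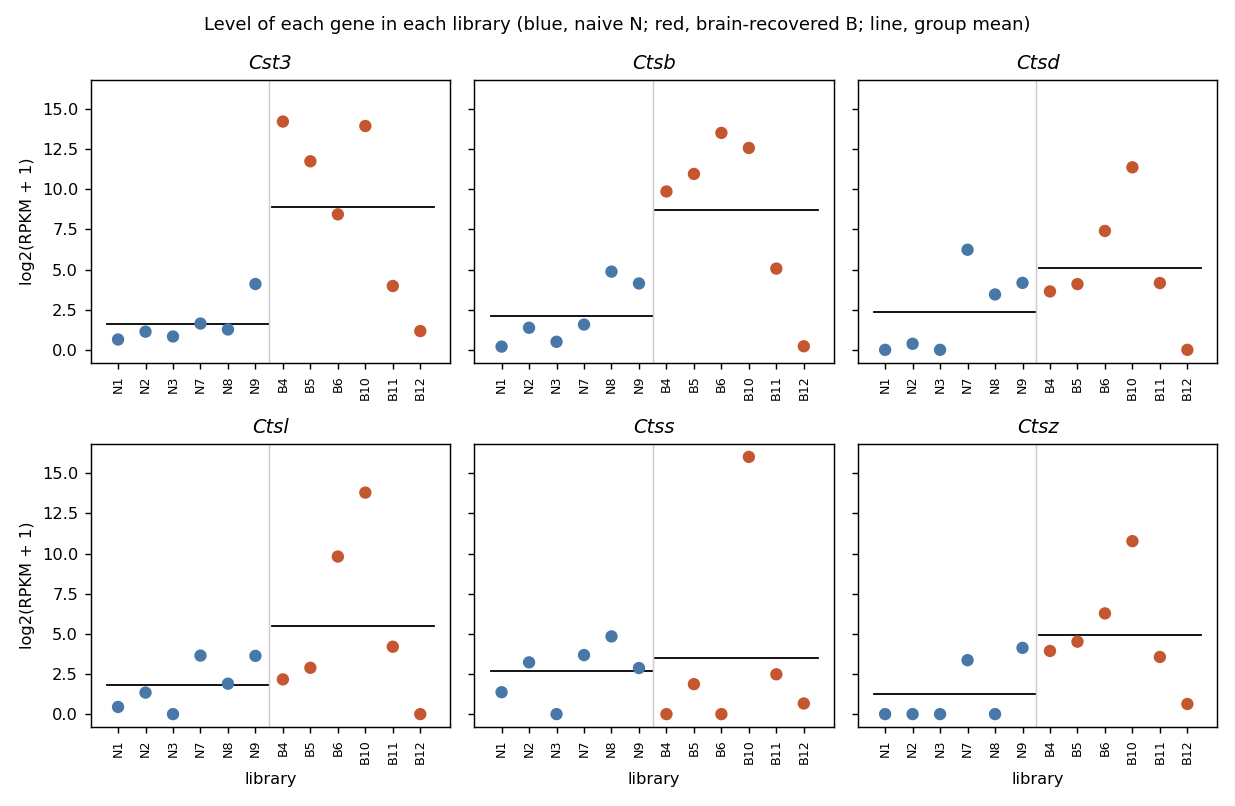
Level of each gene, as log2(RPKM + 1), in 6 naive (N, blue) and 6 brain-recovered (B, red) libraries, numbered by replicate, with the group mean as a line. Cst3 and Ctsb are high in B4, B5, B6 and B10, Ctss is high in B10 alone, and B12 is low in all 6 genes.

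The Cst3 and Ctsb calls depended on how libraries were scaled and on which sets of libraries were fitted. Both were lost after quantile normalization (differences 4.90 and 4.26, limma adjusted p = 0.831 for both), which moved the median of all entries from 0.64 to -0.06. Scaling to the total of the values moved that median to -0.36 and lost both as well (5.43 and 4.80, limma adjusted p = 0.514 and 0.748). With the 4 sparse libraries named above left out, both calls were lost although the differences were larger, 8.13 and 6.87 (limma adjusted p = 0.761 and 0.75). The SEs rose from 1.42 for both genes to 2.00 and 1.66, in a fit of fewer libraries whose variance was also estimated differently. Libraries numbered 7 to 12 alone gave 4.03 and 2.43 (limma adjusted p = 0.82 for both). Libraries 1 to 6 alone gave 10.60 and 10.75 (limma adjusted p = 0.0089 and 0.00535). There every naive library was a sparse one, and 6010 of 15890 entries were called higher. Leaving out any 1 library lost neither call.

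Ctsl and Ctsz had middle differences that did not pass, and rested on few reads in most libraries. Ctsl encodes cathepsin L, an endopeptidase of lysosomes (ENSMUSG00000021477, chromosome 13, 64359337 to 64370890, minus strand). It had 0.362, 1.53, 0, 11.5, 2.72 and 11.4 RPKM in the naive libraries and 3.48, 6.39, 899, 14243, 17.4 and 0 RPKM in the brain-recovered ones. Only replicates 6, 10 and 11 exceeded every naive library, and the 0 in replicate 12 allows up to 1.20 RPKM (3 reads, counting error only). On the log2 scale its groups differed by 3.65 ± 1.32 (limma SE, adjusted p = 0.404), which did not pass.

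Ctsz encodes cathepsin Z, also called cathepsin X, which removes single residues from the C-terminus of proteins (ENSMUSG00000016256, chromosome 2, 174427493 to 174439039, minus strand). It was listed at 0 in naive replicates 1, 2, 3 and 8, with 9.28 RPKM in replicate 7 and 16.5 in replicate 9. The brain-recovered libraries had 14.3, 21.9, 76.4, 1750, 10.8 and 0.549 RPKM. All 6 brain-recovered libraries were above the naive median of 0, yet only replicates 5, 6 and 10 exceeded naive replicate 9. A count of 0 allows up to 1.48 to 3.72 RPKM in those 4 libraries (3 reads). The log2 difference of 3.70 ± 1.28 (limma SE, adjusted p = 0.32) did not pass. Without brain-recovered replicate 12, the differences of Ctsl and Ctsz were 4.75 and 4.56 and both passed (limma adjusted p = 0.0379 and 0.033). In that fit 4 of 6 members were called higher, beside 226 of 17529 entries. Without brain-recovered replicate 10 the differences of Ctsl and Ctsz were 1.99 and 2.54 (limma adjusted p = 0.926 and 0.83).

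Ctsd and Ctss did not exceed the naive range in most brain-recovered libraries. Ctsd encodes cathepsin D, the main aspartic protease of lysosomes (ENSMUSG00000007891, chromosome 7, 142375911 to 142388038, minus strand). It had 0, 0.3, 0, 74.3, 9.93 and 17.0 RPKM in the naive libraries and 11.5, 16.1, 169, 2645, 16.9 and 0 RPKM in the brain-recovered ones. Replicates 6 and 10 alone were above naive replicate 7 (log2 difference 2.74 ± 1.33, limma SE, adjusted p = 0.752). Without replicate 10 the difference was 1.49 (limma adjusted p = 0.977). In libraries 1 to 6 alone, where the naive libraries were all sparse, Ctsd and Ctsz passed (limma adjusted p = 0.014 and 0.0039). In that fit 6010 of 15890 entries were called higher.

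Ctss encodes cathepsin S, a protease of antigen-presenting cells that works also at neutral pH and cuts the invariant chain of MHC class II (ENSMUSG00000038642, chromosome 3, 95526786 to 95556403, plus strand). Its naive values were 1.58, 8.35, 0, 11.8, 27.6 and 6.32 RPKM. In brain-recovered replicate 10 it reached 66620 RPKM, from 78663 reads, the highest value of any member in any library, where it ranked 15. In the other 5 brain-recovered libraries it had 0, 2.65, 0, 4.58 and 0.582 RPKM, from at most 6 reads each, all below the naive median of 7.33. The log2 difference of 0.84 ± 1.28 (limma SE, adjusted p = 0.986) rested on that library. Without replicate 10 it was -1.66 ± 1.15 (limma adjusted p = 0.93), with the sign reversed.

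**Figure D2:**
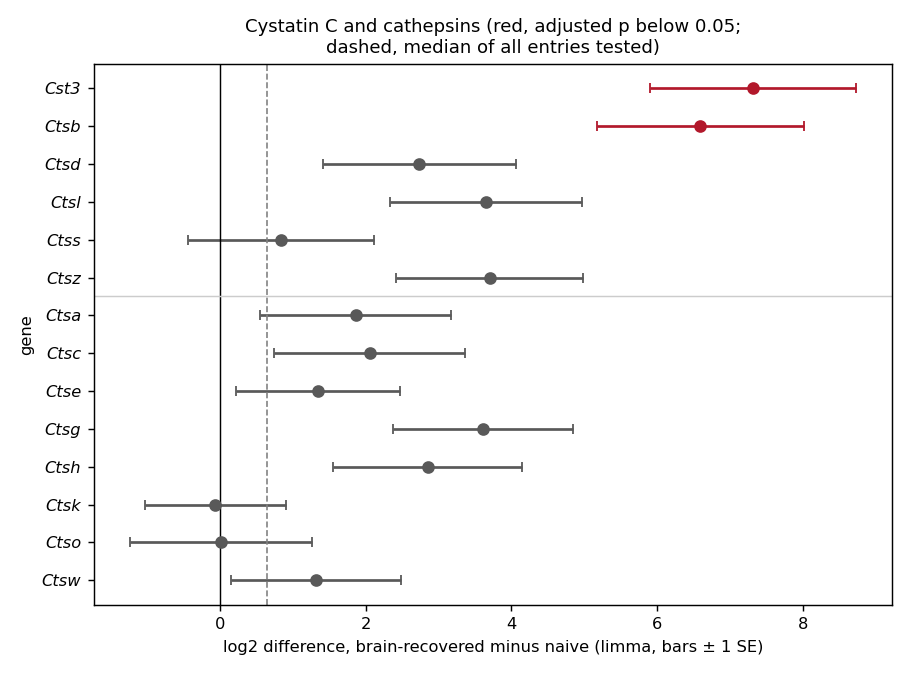
Log2 difference between brain-recovered and naive cells (limma, bars ± 1 SE, 6 libraries each) for the 6 members, above the line, and 8 other cathepsin genes, below it. Cst3 and Ctsb (red) have an adjusted p below 0.05, and the dashed line is the median of all entries tested, 0.64.

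The members did not share 1 order of levels. In brain-recovered cells the mean log2(RPKM + 1) went down from Cst3 (8.92) and Ctsb (8.70) through Ctsl (5.48), Ctsd (5.11) and Ctsz (4.95) to Ctss (3.51). No neighbours in that order differed beyond their spread. The gap between Cst3 and Ctsb was 0.22 ± 3.13 (SD over 6 libraries), that between Ctsb and Ctsl 3.22 ± 3.95, and that between Ctsz and Ctss 1.44 ± 3.95. In naive cells the means lay between 1.25 for Ctsz and 2.66 for Ctss.

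The balance between inhibitor and proteases differed from library to library within the brain-recovered group. Cst3 made up 95.2% of the summed RPKM of the 6 genes in replicate 4 and 62.8% in replicate 5. In replicate 6 it made up 2.63% and Ctsb 88.7%. In replicate 10 Ctss made up 62.2%, Cst3 14.7% and Ctsl 13.3%. The ratio of Cst3 to the sum of the 5 cathepsins was thus 19.9, 1.69, 0.027 and 0.172 in replicates 4, 5, 6 and 10. In replicate 11 the 6 genes summed to 96.8 RPKM, within the naive range of 1.19 to 111, and in replicate 12 to 2.55. Naive sums rest on 3 to 298 reads per library, too few for their make-up to be read closely.

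**Figure D3:**
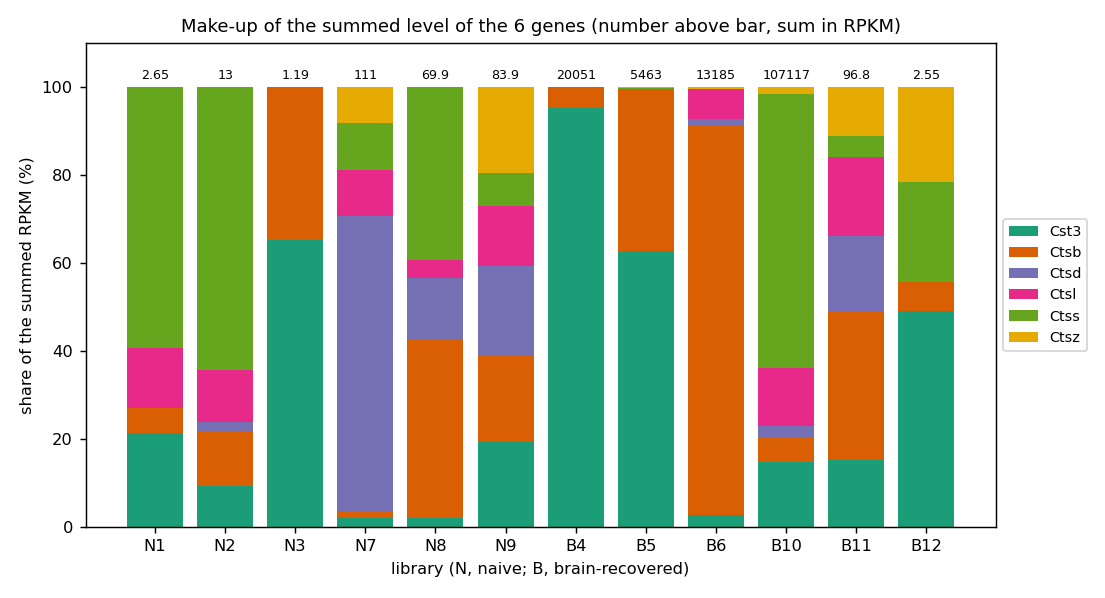
Share of the summed RPKM of the 6 genes that each gene contributed in each naive (N) and brain-recovered (B) library, with the sum in RPKM above the bar. Cst3 takes 95.2% in B4, Ctsb 88.7% in B6 and Ctss 62.2% in B10, while B11 and B12 have sums like the naive libraries.

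Genes of other cell types were high in some of the same libraries. In bulk samples, fewer cells of a type and less RNA per cell cannot be told apart. Of 15 genes of microglia and macrophages, 13 had a usable label, and their sum was 29.9 to 227 RPKM in naive libraries, 39975 in brain-recovered replicate 10 and 1.79 to 298 in the other 5. C1qa and C1qb, subunits of complement C1q, had 19416 and 1764 RPKM in replicate 10 and at most 49.2 in any naive library (log2 differences of 2.19 ± 1.29 and 1.96 ± 1.29, limma SE, adjusted p = 0.905 and 0.927). Itgam, which encodes the CD11b used to deplete the donor cells and was picked out after its values were seen, had 10707 RPKM there, on a label kept by its neighbours only. Olfml3, a further gene of the list with such a label, had 8010 RPKM in replicate 10 and at most 28.6 in any naive library. P2ry12 and Gpr34, defining genes of microglia, were listed at 0 in all 12 libraries. A row at 0 throughout, as 14536 of the 38924 rows were, has no implied length, so these 2 labels could not be checked. Tmem119, Cx3cr1, Siglech, Sall1 and Fcrls had 0 RPKM in replicate 10. C1qc, the gene of the remaining C1q subunit, was also at 0 there and reached 61.4 RPKM in a naive library (-0.998 ± 1.28, limma SE, adjusted p = 0.986), so the high sum came from some genes of the list and not from others.

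Astrocyte genes (7 of 9 usable) summed to 25 to 96.9 RPKM in naive libraries, to 1131 and 2174 in brain-recovered replicates 4 and 6, and to 5.25 to 228 in the other 4. The glutamate transporter genes Slc1a2 and Slc1a3 had the largest differences of that list (3.44 ± 1.37 and 2.31 ± 1.35 SE, limma adjusted p = 0.553 and 0.894), with 182 and 799 RPKM in replicate 4 and 2096 and 36.8 in replicate 6. Gfap, the intermediate filament gene of astrocytes, was listed at 0 in all 12 libraries, so its label could not be checked either. Oligodendrocyte genes (6 of 8 usable) summed to 12387 RPKM in replicate 6, to 50.9 to 77.3 in the other 5 brain-recovered libraries and to 12.7 to 89.9 in the naive ones. Mag and Cnp, which encode myelin proteins, had 5803 and 6547 RPKM in replicate 6 (3.63 ± 1.33 and 2.37 ± 1.27, limma adjusted p = 0.443 and 0.851). The entries labelled Mbp and Mobp, 2 further myelin genes, are not in that sum because their lengths did not support the labels. The entry labelled Mbp had 4239, 5174 and 6044 RPKM in replicates 4, 5 and 6 and at most 18.7 in any naive library. The entry labelled Mobp had 1271, 1854 and 2932 RPKM in the same libraries and at most 23.2 in naive ones, so high values under myelin labels were not limited to replicate 6. The part of these cell types in the Cst3 and cathepsin levels was not tested.

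Marrow cell genes were high there as well. The 10 usable stem and progenitor genes summed to 24984 and 94314 RPKM in replicates 6 and 10 and to 170 to 2805 in the other brain-recovered libraries. In replicate 10 the sum was mostly that of 3 granule genes, Elane (65623 RPKM), Prtn3 (23740) and Mpo (4808). The transcription factor and receptor genes of the list were not high there, with 0 RPKM for Gata2, Meis1 and Runx1, 1.78 for Flt3, 10.8 for Myb and 12.8 for Spi1. Elane, a neutrophil protease gene, and Mpo, the myeloperoxidase gene, were the only members of that list called (5.98 ± 1.39 and 5.86 ± 1.40 SE, limma adjusted p = 0.00835 and 0.0125). With 1 library left out, Elane ranged from 7.42e-05 to 0.197 and Mpo from 4.73e-05 to 0.0992 in limma adjusted p. The Elane call was lost without naive replicate 7 or 8 or brain-recovered replicate 5, 6 or 10, and the Mpo call without naive replicate 2, 7, 8 or 9 or brain-recovered replicate 6, 10 or 11. Genes of mature neutrophils and monocytes (5 of 10 usable) summed to 47.1 to 12976 RPKM in naive and 0 to 17607 in brain-recovered libraries, so that the groups overlapped fully. Its 2 genes with the largest differences were Lcn2 (3.65 ± 1.23, limma adjusted p = 0.289) and S100a8 (1.92 ± 1.45, 0.954). Neuronal genes (5 of 8 usable) reached 376 RPKM in replicate 4 against 115 in naive cells, and endothelial genes (8 of 8) reached 1537 in replicate 6 against 181. Neither list had a called gene (limma, 1 endothelial gene higher at an unadjusted p below 0.05). Their largest differences were those of Gad1 (1.16 ± 1.20, limma adjusted p = 0.977) and Rbfox3 (0.94 ± 1.25, 0.986) among neuronal genes, and of Esam (3.09 ± 1.27, 0.586) and Flt1 (-1.37 ± 1.31, 0.967) among endothelial ones.

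**Figure D4:**
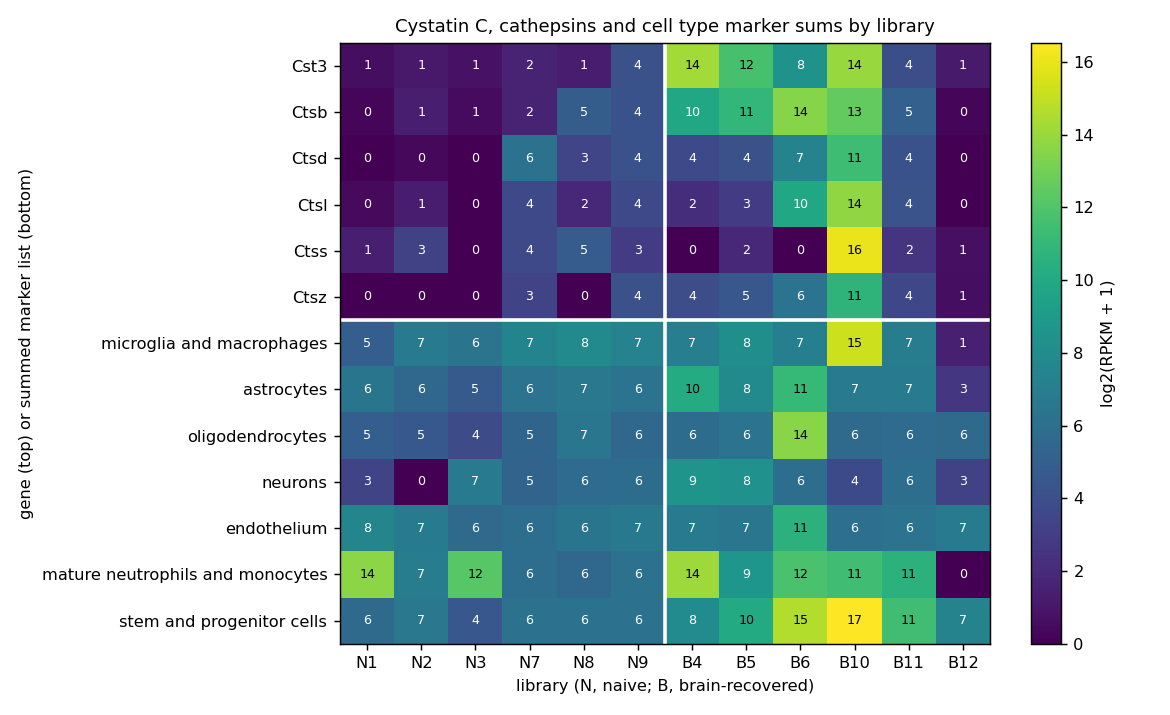
Log2(RPKM + 1) of the 6 genes (top) and of the summed marker lists (bottom) in each naive (N) and brain-recovered (B) library. B10 is high in Ctss and in the microglia and macrophage sum, B6 in Ctsb and in the oligodendrocyte sum, and B4 in Cst3 with an astrocyte sum of 1131 RPKM. The astrocyte sum is highest in B6 (2174 RPKM, with 2096 from Slc1a2), where Cst3 has 346 RPKM. It is 112 RPKM in B10, where Cst3 has 15757 RPKM. The part of these cell types in the levels of the 6 genes was not tested. In B10 the stem and progenitor sum (94314 RPKM) exceeds that of microglia and macrophages (39975 RPKM).

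Among the other cathepsin genes, 0 of 8 tested passed in either direction with limma, with 2 higher at an unadjusted p below 0.05 and a median difference of 1.60. Over all entries 0.367% were called higher, 6.08% were higher at an unadjusted p below 0.05 and the median was 0.64, so that a count of 0 in a list of this size is near the background. Of the 10 genes, 9 had a usable label, and Napsa was listed at 0 throughout, on a label that could not be checked. The largest differences were those of Ctsg, the serine protease cathepsin G of neutrophil granules (3.62 ± 1.23 SE, limma adjusted p = 0.3), and Ctsh, the aminopeptidase cathepsin H (2.85 ± 1.30, limma adjusted p = 0.683). Ctsg had at most 4.61 RPKM in naive cells and 118 and 122 RPKM in brain-recovered replicates 10 and 12, the latter a library in which the 6 members were at or below 1.25 RPKM. Ctsh reached 9535 RPKM in replicate 10 and stayed at or below 22.6 elsewhere. In replicate 10 the 9 genes summed to 29278 RPKM, against at most 319 in the other 11 libraries.

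Other cystatin genes also had 0 of 5 tested past the threshold with limma (1 higher at an unadjusted p below 0.05, median difference 0.76). Of the list, 10 genes had a usable label, and those below the filter were not tested. Among these, Cstb had 3583 RPKM in brain-recovered replicate 5 and 0 in the other brain-recovered libraries. Its highest naive value was 33.5 RPKM, and its label was kept by its neighbours only. Cst7, which encodes the leukocyte cystatin F, had 2307 and 3364 RPKM in brain-recovered replicates 6 and 10 and at most 26.8 in naive cells. Replicates 4, 5, 11 and 12 had 0, 18.2, 8.42 and 0 RPKM, so the groups overlapped (2.70 ± 1.33 SE, limma adjusted p = 0.765). Cst12 had the next difference (0.79 ± 1.20, limma adjusted p = 0.986).

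The remaining lysosomal machinery had no called gene with limma in any of 4 lists, which at the background of 0.367% says little about lists of this size. Genes of delivery and processing had 0 of 13 called, 0 at an unadjusted p below 0.05, and a median difference of 1.27. They were led by Lgmn, the protease legumain that processes cathepsins (2.33 ± 1.36 SE, limma adjusted p = 0.894), and Mcoln1, a lysosomal calcium channel gene (2.00 ± 1.21, limma adjusted p = 0.906). Lgmn had 166, 201 and 533 RPKM in brain-recovered replicates 4, 10 and 11 and at most 32.9 in every other library. The gene of the transcription factor itself, Tfeb, had 0 to 17.2 RPKM in naive and 5.12 to 15.0 in brain-recovered libraries (0.94 ± 1.26, limma adjusted p = 0.986).

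Lysosomal hydrolases other than proteases had 0 of 14 called (1 higher at an unadjusted p below 0.05, median 0.86). Asah1, the acid ceramidase gene, had 0.21 to 10.7 RPKM in naive cells and 25.5, 1683, 70.9, 14343, 12.2 and 0.466 RPKM in the brain-recovered libraries (4.10 ± 1.38 SE, limma adjusted p = 0.286). It thus exceeded every naive library in 5 of 6 brain-recovered ones, as Ctsb did. Man2b1, a lysosomal mannosidase gene, came next (1.93 ± 1.28, limma adjusted p = 0.94).

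Subunits of the proton pump that acidifies lysosomes had 0 of 11 called and 0 at an unadjusted p below 0.05, with a median of 0.96. Their largest differences pointed in opposite directions, 2.39 ± 1.29 for Atp6v1h and -1.88 ± 1.26 for Atp6v0a1 (SE, limma adjusted p = 0.852 and 0.946). Of 7 genes of the invariant chain and MHC class II, only 3 had a usable label, and 0 of these 3 passed with limma (2 higher at an unadjusted p below 0.05). Cd74, the invariant chain that cathepsin S cuts, had 13490 RPKM in brain-recovered replicate 6 and 29.4 in replicate 10 (3.73 ± 1.33 SE, limma adjusted p = 0.379). Ctss was listed at 0 in replicate 6 and was at its highest in replicate 10, so the peaks of the protease and of its substrate lay in different libraries. H2-DMa, a class II chaperone gene, had 68.2 RPKM in replicate 10 (3.21 ± 1.19, limma adjusted p = 0.453).

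The entries most like each member over the 12 libraries were taken from the 8248 tested entries of exact gene length, by Pearson's r of log2(RPKM + 1), as a description. Every such r also carries the difference between the groups and the few libraries that are high. For Cst3 they were Rxfp4 (r = 0.957), Tubg1, 2410006H16Rik, Hspa1b and Rpl23 (0.914), and for Ctsb they were Snrpb (0.964), Ewsr1, Serinc3, Hsp90ab1 and Rpl23 (0.948). The ribosomal protein gene Rpl23 was thus among the nearest entries of both called members. For Ctsd they were Psap (0.964), Snhg6, Ddx3x, Il1b and Dnajc2 (0.959), and for Ctsl they were Ptges3 (0.982), Il1b, Mmadhc, Chmp5 and Psmd4 (0.954). Psap encodes prosaposin, the precursor of lysosomal lipid-binding proteins, and Il1b the cytokine interleukin 1 beta. For Ctss they were Bccip (0.95), Cat, Ccne2, Ctsa and Romo1 (0.935). Ctsa, the gene of the lysosomal carboxypeptidase cathepsin A, had 16748 RPKM in brain-recovered replicate 10 and at most 24.4 in any other library. For Ctsz they were Gm26630 (0.99), Gm15637, Ccl4, Ube2g2 and Slc23a2 (0.949).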

How the data were processed

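Libraries came from cDNA amplified out of lysate with SMARTer Ultra Low Input v3 and Nextera XT, per the labels' protocols. Per the submitters' processing notes, Trimmomatic 0.32 and build GRCm38 were used, while the sources used here do not give the aligner, counter or annotation. The authors deposited 1 value per gene and library with no unit named. The deposited values are called RPKM here. Of 24388 entries above 0, 24387 were whole reads (within 0.004 of a read, slightly more at high counts) times 1 constant per library over 1 length. That form holds for any scaling of libraries, and the constants did not follow the read totals, so the unit is not settled. Reads amplified by PCR and not counted by molecular identifiers are not independent, so intervals and floors cover counting error only.

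Gene names and coordinates came from GENCODE M21 on GRCm38, matched by Ensembl identifier. A label was usable where the implied length equalled the exon length or that over a whole number up to 5 (10629 of 22545 entries that could be checked, 47.1%), or lay within 0.5% of that length or of a transcript's. It was also usable where at least 4 of 6 alphabetical neighbours matched, no gene within 40 places had the implied length, and that length was not over 2 times the gene's. This rule was chosen after the data were seen. The rule planned before kept an entry whose length equalled the gene's or divided it by a small whole number. Cst3, Ctss and Ctsz meet the planned rule, while Ctsb, Ctsd and Ctsl do not. Windows before gene starts came from RefSeq.

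Groups were compared by limma 3.58.1 (R 4.3.3; trended eBayes without covariates) on log2(RPKM + 1), over entries of at least 1 in at least 6 libraries (proportionally fewer in fits of fewer libraries), with Benjamini-Hochberg adjustment over all entries and a threshold of 0.05. Fold changes on this scale understate the change of low genes. In the main fit the weight of the variance trend was infinite, so each SE comes from all entries of like level, not from the gene alone. In some alternative fits that weight was finite, among them quantile normalization and the fit without the sparse libraries. Those fits thus differ from the main one in the variance used as well. The design allowed for counts, but the table held length-normalized values. Tables and plots were made in Python 3.11.15 with pandas 2.3.3, numpy 2.4.6, matplotlib 3.10.9 and scipy 1.17.1. The fit was also run on simulated independent normal values. These lack the library-wide effects and the unequal spread of the groups seen here, so that run does not show how the fit behaves on these data. Named list genes were those past the threshold or, where none passed, the 2 with the largest absolute difference, plus the 5 entries most like each member. Other list genes (Itgam, defining markers at 0, Napsa, Tfeb, Prtn3, Mbp, Mobp, Cstb, Atp6v1f and those given to show how a list's sum is made up) were picked after their values were seen. Members and lists were chosen with earlier results of these data known. One gene of the oligodendrocyte list is not reported here and was left out of its sum.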

Additional observations from a re-analysis of the deposited data

Results flagged for a closer look

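Of the 12 sets of values screened (6 genes in 2 groups of 6 libraries, on the log2 scale), 2 held 1 library far from the other 5, where chance flags about 1 set in 20. Ctss at 66620 RPKM in brain-recovered replicate 10 lay apart from the other 5 libraries by 0.845 of the whole range of its group. Cst3 at 16.2 RPKM in naive replicate 9, from 31 reads, lay apart from the other naive libraries by 0.713 of the range.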

How the results depend on the processing

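No paired analysis was possible because the groups share no replicate number. The number of the 6 members called higher was 2. It was 0 with quantile normalization, with scaling to the total of the values, in libraries numbered 7 to 12 alone and without the 4 libraries under 10000 entries above 0, and it was 1 (of 3 tested) when entries were limited to those of exact length. It was 4 in libraries numbered 1 to 6 alone, beside 6010 of 15890 entries. It was 2 to 4 when 1 library was left out, with 4 without brain-recovered replicate 12, beside 226 of 17529 entries. Leaving out both brain-recovered replicates 10 and 12, or testing each gene by exact permutation over all 924 assignments, were alternatives chosen after seeing the data. The second gave an unadjusted two-sided p of 0.0173 for Cst3, 0.026 for Ctsb, 0.0195 for Ctsz, 0.143 for Ctsl, 0.173 for Ctsd and 0.955 for Ctss (n = 6 per group). Leaving out both gave Ctss a difference of -1.58. The Ctss difference ranged from -1.66 to 1.54 with 1 library left out. It was also below 0 with scaling to the total (-0.11), with sample weights (-1.11), without brain-recovered replicate 10 (-1.66) and in libraries 1 to 6 alone (-0.91). Ctsl and Ctss did not pass a filter of at least 10 and have no value there. Libraries 1 to 6 alone called 2 of 5 other cathepsins, 5 of 13 delivery genes, 2 of 15 hydrolases, 4 of 10 proton pump subunits and 1 of 2 class II genes. Over all entries, 6010 of 15890 were called higher there, a share that these counts do not clearly exceed. Leaving out 1 library gave 0 to 1 hydrolases and 0 to 1 class II genes, in each case 1 without brain-recovered replicate 12. Over all entries the count of 65 higher became 33 with a filter of at least 10, 0 with quantile normalization and 0 with scaling to the total, 115 with eBayes without a trend, 6010 in libraries 1 to 6 alone, 0 in libraries 7 to 12 alone and 2 without the sparse libraries. Without 1 library it was 36 to 226, with 36 without naive replicate 8, 39 without naive replicate 1, 40 without naive replicate 9, 40, 41, 39 and 226 without brain-recovered replicates 5, 6, 11 and 12. The cause was not tested. Values from 1 to 3 reads, common in the sparse libraries, limit what can be said of the 6 genes there.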

Other observations

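As a share of all reads, the 6 genes together took 1.15% in brain-recovered replicate 10 (95% Wilson interval 1.15% to 1.16%), 0.549% in replicate 4 (0.542% to 0.557%), 0.333% in replicate 5 (0.328% to 0.338%) and 0.328% in replicate 6 (0.324% to 0.332%). The gene with the highest RPKM of the 6 was Cst3 in replicates 4 and 5, Ctsb in replicate 6 and Ctss in replicate 10. Replicate 11 gave 0.00869% (0.0077% to 0.00981%), replicate 12 gave 0.000484% (0.000207% to 0.00113%), and the naive libraries gave 0.00047% to 0.0144%.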
